A study of Homo sapiens with 40 samples.

Results

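The peaks described here are the CENP-A peaks beside the centromere of chromosome 16 in SW480 cells. All peaks of the 6 deposited lists were taken that lay wholly within chr16:28000000-34600000 on the short arm or chr16:38600000-52000000 on the long arm (hg19). The rule gave 371 of the 5748 peaks in the lists, of which 38 were in control, 41 after DAXX knockdown, 57 after HIRA knockdown, 37 after HJURP knockdown, 93 after the HIRA+DAXX knockdown and 105 after the HIRA+HJURP knockdown. The windows leave out the centromere band itself, so the peaks count as ectopic, which here means only that they lie outside that band. Values given below over all deposited peaks, or over the series, take in chromosome 16 and peaks in centromere bands as well.

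SW480 is a long-established line of human colon cancer cells that overexpresses its own CENP-A. Cells were transfected with siRNA for 72 h, chromatin was cut with MNase without crosslinking, and ACA, a human serum against centromere proteins, was used to pull down CENP-A. Of the 40 libraries, 20 were ChIP and 20 were input, with 4 ChIP libraries for control and each single knockdown (DAXX, HIRA, HJURP) and 2 for each double knockdown (HIRA+DAXX, HIRA+HJURP). The labels call the control cells untreated, whereas the study's methods name a control siRNA. Libraries were sequenced in either single-end or paired-end mode. Each condition has 1 list of peaks merged over its replicates, so the values below carry no replicate error and a difference between conditions has no test. The 5 knockdown lists were all set against the same control list. A merged peak had to overlap peaks of at least 3 replicates, and the rule used where there were only 2 is not given. Some sample titles begin with Rep and a number, and others are numbered without it. Control and each single knockdown have ChIP libraries with both forms of title, and the double knockdowns only with the latter. What the forms stand for is not stated. A double knockdown therefore cannot be told apart from the smaller number of libraries behind it or from their form of title. The lists hold positions without scores or read counts, so the depth behind a single peak cannot be read from them, and the read totals of the libraries were not used here.

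CENP-A is the histone H3 variant that marks the site of the kinetochore. HJURP is the chaperone that delivers it to centromeres, while HIRA and DAXX are chaperones of the H3.3 variant, HIRA at active chromatin and DAXX, with ATRX, at repeats and telomeres. The flanks of human centromeres are built of satellite DNA: alpha satellite, an AT-rich repeat whose unit is about as long as the DNA of a nucleosome with its linker, and classical satellites made of degenerate copies of the pentamer ATTCC. Some alpha satellite units carry the CENP-B box, the binding site of the centromere protein CENP-B. Beside the centromere of chromosome 16, the long arm holds a large block of classical satellite.

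The sequence under the peaks differed between the arms, and stretches of each kind are shown here as read from the GRCh37 plus strand. The first is the central 300 bases of the widest long-arm site found in all 6 lists (chr16:46391909-46392208), and the second is a long-arm site found in both double knockdowns and nowhere else (chr16:46417585-46417758). Capitals mark each ATTCC or GGAAT, 12 in the first and 7 in the second.
Long-arm site in all lists: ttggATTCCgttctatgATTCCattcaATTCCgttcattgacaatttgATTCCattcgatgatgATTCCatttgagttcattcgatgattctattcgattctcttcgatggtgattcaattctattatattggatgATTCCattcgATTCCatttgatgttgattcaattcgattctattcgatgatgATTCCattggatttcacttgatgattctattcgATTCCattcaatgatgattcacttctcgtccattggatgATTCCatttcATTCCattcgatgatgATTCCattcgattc
Long-arm site of the double knockdowns: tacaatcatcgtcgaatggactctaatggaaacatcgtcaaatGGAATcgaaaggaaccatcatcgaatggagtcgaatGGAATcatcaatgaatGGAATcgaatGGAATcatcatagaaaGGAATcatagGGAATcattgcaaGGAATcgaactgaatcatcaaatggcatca

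On the short arm, a repeat of 171 bases took the place of the pentamer. A pair of neighbouring units from a site in all 6 lists (chr16:33995332-33995502 and chr16:33995503-33995673) is shown, with capitals at the 12 positions where the units differ. Within that site only the control and DAXX peaks reach over these units, and the peaks of the other lists lie beside them.
Short-arm first unit: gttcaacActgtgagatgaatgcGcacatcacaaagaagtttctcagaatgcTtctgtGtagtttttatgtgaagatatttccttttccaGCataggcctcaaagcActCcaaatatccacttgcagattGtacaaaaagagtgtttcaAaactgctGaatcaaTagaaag
Short-arm second unit: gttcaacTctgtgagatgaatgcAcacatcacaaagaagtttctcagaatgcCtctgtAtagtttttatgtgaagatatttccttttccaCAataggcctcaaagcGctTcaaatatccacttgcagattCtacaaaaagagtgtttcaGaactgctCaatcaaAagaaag

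The short-arm site nearest the centromere held the only matches to the CENP-B box in these peaks. The 300 bases shown (chr16:34021546-34021845) hold the first of the 4 boxes, in capitals.
Short-arm CENP-B box: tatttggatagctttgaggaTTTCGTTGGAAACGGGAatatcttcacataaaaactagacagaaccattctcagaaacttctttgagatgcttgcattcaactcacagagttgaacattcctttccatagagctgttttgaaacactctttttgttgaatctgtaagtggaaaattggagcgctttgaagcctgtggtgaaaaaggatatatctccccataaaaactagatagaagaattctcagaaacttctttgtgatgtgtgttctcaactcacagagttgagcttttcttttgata

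A pair of sites not scored as either repeat kind is shown because of the lists that held them. The first is the middle of the only short-arm site that all 5 knockdown lists shared and control lacked (chr16:33923401-33923571), which has no pentamer and so no capitals. The second is the only site found in control alone (chr16:50775693-50775919), with its 20 CG dinucleotides in capitals.
Short-arm site of all knockdowns: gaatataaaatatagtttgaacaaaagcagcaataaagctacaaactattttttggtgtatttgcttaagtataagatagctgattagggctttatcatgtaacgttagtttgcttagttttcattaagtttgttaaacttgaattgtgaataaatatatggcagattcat
Long-arm site of control alone: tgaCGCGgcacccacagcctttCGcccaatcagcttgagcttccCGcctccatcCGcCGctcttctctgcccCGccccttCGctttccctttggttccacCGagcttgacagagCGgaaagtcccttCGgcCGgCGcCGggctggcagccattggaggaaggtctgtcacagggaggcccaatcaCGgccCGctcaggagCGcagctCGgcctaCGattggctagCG

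Where peaks of different lists overlapped they were joined into sites, which gave 27 sites on the short arm (88.63 kb) and 34 on the long arm (33.25 kb). Joined within 100 kb, a distance chosen after the positions were seen, the 61 sites formed 7 loci. On the short arm a distal cluster at chr16:32515332-32562320 held 5 sites and a proximal cluster at chr16:33874019-34023097 held 18. The proximal cluster ended 53 bp short of an assembly gap of 150000 bp. On the long arm 33 of the 34 sites lay in one cluster, chr16:46385768-46500161, which began at the edge of the largest assembly gap (chr16:35285802-46385801), with 34 bases of its first site inside the gap. Both main clusters thus ran up to sequence that the assembly does not have.

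Coverage, the summed width of the peaks, moved in opposite directions on the 2 arms after HIRA and HJURP knockdown. On the short arm it was 57.97 kb in control, 74.91 kb after DAXX, 48.92 kb after HIRA and 20.55 kb after HJURP knockdown. It was 10.20 kb in the HIRA+DAXX list and 12.19 kb in the HIRA+HJURP list. Of the 5 knockdowns only DAXX was thus above control on the short arm, at 1.29 times control, and was 0.844 times control after HIRA, 0.354 after HJURP, 0.176 after HIRA+DAXX and 0.210 after HIRA+HJURP knockdown. On the long arm it was 21.50 kb in control, 29.52 kb after DAXX, 30.32 kb after HIRA and 28.80 kb after HJURP knockdown. The double knockdowns gave 20.10 kb (HIRA+DAXX) and 17.57 kb (HIRA+HJURP) there. All 3 single knockdowns were above control on the long arm, at 1.37, 1.41 and 1.34 times control, whereas the double knockdowns were at 0.935 and 0.817. With peaks within 1000 bp merged, those last ratios turned to 1.42 and 1.46. Over all deposited peaks the ratios were 2.51 after DAXX, 1.64 after HIRA and 2.04 after HJURP knockdown, each above the long-arm ratio. The sum over both arms hid this: after HIRA knockdown it was 79.23 kb against 79.48 kb in control, a ratio of 0.997.

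**Figure D1:**
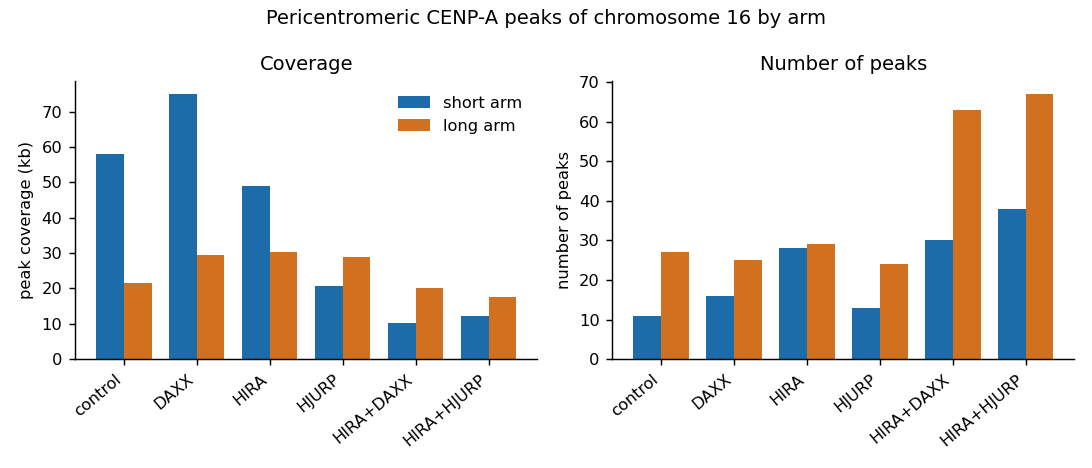
Summed peak width in kb (left) and number of peaks (right) in each of the 6 lists, with the short arm in blue and the long arm in orange, and 1 merged list per bar without error. Short-arm coverage runs from 74.91 kb after DAXX knockdown to 10.20 kb in the HIRA+DAXX list, while long-arm coverage stays between 17.57 and 30.32 kb.

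The balance of the arms turned over. The short arm held 72.9% of the covered bases in control and 71.7% after DAXX knockdown. It held 61.7% after HIRA knockdown, 41.6% after HJURP knockdown, 33.7% in HIRA+DAXX and 40.9% in HIRA+HJURP. By number of peaks as deposited the short arm held less than 50% in each list. With peaks within 1000 bp merged it held 62.5% after DAXX, 69.0% after HIRA, 54.2% after HIRA+DAXX and 64.0% after HIRA+HJURP knockdown, and with peaks of at least 500 bp it held 53.7% after HIRA knockdown and 52.9% in HIRA+HJURP. The shares that follow are of the deposited peaks. The short-arm share was 28.9% in control (11 of 38, 95% Wilson interval 17.0 to 44.8%) and 39.0% after DAXX knockdown (16 of 41, 25.7 to 54.3%). It was 49.1% after HIRA knockdown (28 of 57, 36.6 to 61.7%) and 35.1% after HJURP knockdown (13 of 37, 21.8 to 51.2%). The double knockdowns had 32.3% (30 of 93, 23.6 to 42.3%) and 36.2% (38 of 105, 27.6 to 45.7%). All 5 knockdown intervals overlapped that of control. These intervals and those below cover counting error only, and neighbouring peaks of one repeat are not independent.

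Widths set the 2 arms apart in control. The 11 short-arm control peaks ran from 714 to 13164 bp with a median of 5503 bp, and 6 were at least 5000 bp wide. The 27 long-arm control peaks ran from 218 to 2138 bp with a median of 642 bp. The widest long-arm control peak was therefore narrower than the median short-arm one. After DAXX knockdown the short-arm median was 1768 bp and the widest peak 18703 bp. After HIRA knockdown the median was 1055 bp over 28 peaks, and 2 peaks reached 5000 bp. After HJURP knockdown the median was 1189 bp over 13 peaks, and 1 reached 5000 bp. So the short-arm number rose from 11 to 28 in the HIRA list while its coverage fell by 9.057 kb, and in the HJURP list 13 peaks covered 20.55 kb where the 11 of control covered 57.97 kb. Long-arm medians after single knockdown stayed between 579 and 735 bp, and the widest long-arm peaks were 4442 bp (DAXX), 3286 bp (HIRA) and 4800 bp (HJURP).

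In both double knockdowns the peaks were many and narrow on either arm. The short-arm medians were 277.5 bp (HIRA+DAXX) and 228.5 bp (HIRA+HJURP), and the long-arm medians 189 and 165 bp. Peaks of at most 200 bp, about 1 nucleosome with its linker, made up 49.5% of all peaks in each list (46 of 93 and 52 of 105). There was none among the 38 control or 41 DAXX peaks, and there were 2 of 57 after HIRA and 1 of 37 after HJURP knockdown. The numbers of peaks were 2.45 and 2.76 times control at coverages of 0.381 and 0.374 times control. Over all deposited peaks the numbers were 2.50 and 3.88 times control at coverages of 0.700 and 1.37, with medians of 273.5 and 274 bp against 790 bp in control. More and narrower peaks were thus seen over the whole series in these lists, and chromosome 16 had the lower coverage ratios. These are the lists built from 2 ChIP libraries, and the number of libraries, their form of title and the knockdown cannot be told apart.

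**Figure D2:**
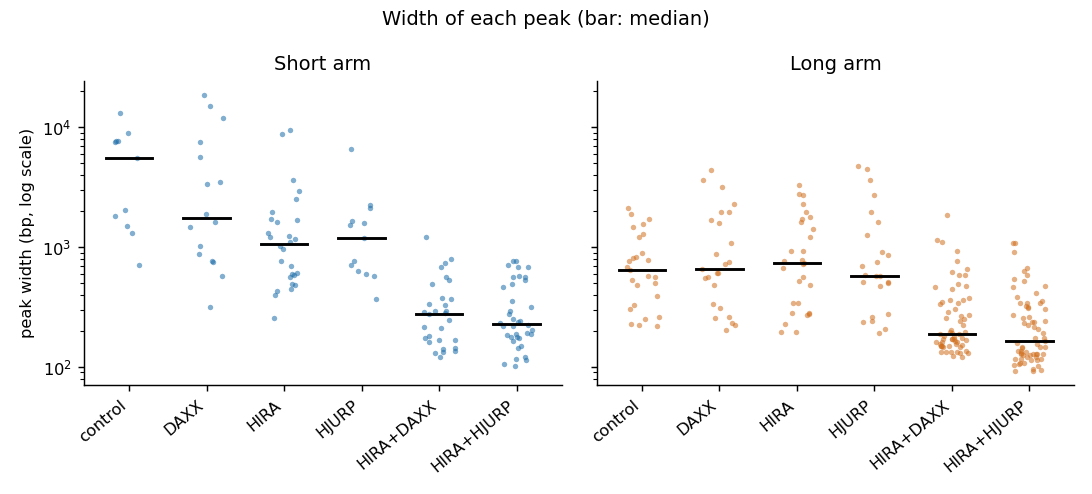
Width of every peak in bp on a log scale in each list, short arm left and long arm right, with 1 point per peak and a black bar at the median. Short-arm medians run from 5503 bp in control to 228.5 bp in HIRA+HJURP, while long-arm medians stay between 579 and 735 bp in the 4 lists other than the double knockdowns.

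Most control peaks on chromosome 16 were touched in every knockdown list, which was also so over all peaks. A control peak was kept when it shared at least 1 base with a peak of the knockdown list. Of the 38 control peaks, 35 (92.1%) were kept after DAXX knockdown, where 86.0% of all control peaks in the series were. After HIRA knockdown 36 were kept (94.7%, against 84.3% over the series) and after HJURP knockdown 31 (81.6%, against 81.6%). In the double knockdowns 32 were kept (84.2%, against 74.8%) in HIRA+DAXX and 33 (86.8%, against 83.8%) in HIRA+HJURP. The Wilson intervals of the 38 held the share of the whole series for each knockdown (79.2 to 97.3%, 82.7 to 98.5%, 66.6 to 90.8%, 69.6 to 92.6% and 72.7 to 94.2%). The number kept thus did not set chromosome 16 apart.

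Apart from 1 isolated peak, the losses were on the short arm. On the long arm 26 of 27 control peaks were kept in each of the 5 knockdowns, and the one not kept was in every case the control-only peak printed above. On the short arm 9 of 11 were kept after DAXX, 10 after HIRA, 5 after HJURP, 6 after HIRA+DAXX and 7 after HIRA+HJURP knockdown. Counted in bases the arms differed about as much after DAXX knockdown and more in the other 4 lists. Of the control bases on the long arm, 98.1% were also covered after DAXX, 98.9% after HIRA and 98.4% after HJURP knockdown, and 71.7% and 65.0% in the double knockdowns. On the short arm the shares were 83.7% after DAXX, 63.5% after HIRA, 28.7% after HJURP, 15.7% after HIRA+DAXX and 17.9% after HIRA+HJURP knockdown. Over all deposited peaks they were 86.8, 80.0, 72.2, 41.0 and 54.4% in the same order, so the short arm after DAXX knockdown was near the series. After HJURP knockdown 41.34 of 57.97 kb on the short arm were no longer covered, against 0.352 of 21.50 kb on the long arm.

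Peaks without a control base made up a smaller share here than over the series. After DAXX knockdown 15 of 41 peaks (36.6%) shared no base with control, against 68.6% over the series, after HIRA knockdown 22 of 57 (38.6%, against 56.4%) and after HJURP knockdown 12 of 37 (32.4%, against 66.2%). In HIRA+DAXX 27 of 93 were new (29.0%, against 49.9%) and in HIRA+HJURP 30 of 105 (28.6%, against 64.6%). With both arms pooled, the upper Wilson bounds of these shares were 51.9, 51.6, 48.5, 38.9 and 37.8%, each below the series' share in the same knockdown. On the long arm alone the upper bounds were also below it, at 47.6, 49.2, 49.2, 47.2 and 43.2%. On the short arm the intervals held the series' share after DAXX (8 of 16 peaks new) and HIRA knockdown (13 of 28, 29.5 to 64.2%). The short-arm upper bounds were below it in the HJURP, HIRA+DAXX and HIRA+HJURP lists, at 64.5, 33.6 and 39.2%. The HJURP bound there rests on 5 of 13 peaks. All of these bounds treat neighbouring peaks of one site as independent, which they are not. With peaks within 1000 bp merged, the pooled shares were 41.7% in HIRA+DAXX and 44.0% in HIRA+HJURP, above the pooled bounds of 38.9 and 37.8%. The share of peaks without a control base was low on chromosome 10 beside its largest gap too. It was 30.8, 24.4, 17.9, 38.8 and 43.7% in the order DAXX, HIRA, HJURP, HIRA+DAXX and HIRA+HJURP. Beside the largest gap of chromosome 1 it was not low, at 68.4, 62.2, 69.2, 54.2 and 61.0%, near the series. New bases on the short arm came to 26.37 kb after DAXX, 12.10 kb after HIRA, 3.915 kb after HJURP, 1.109 kb after HIRA+DAXX and 1.797 kb after HIRA+HJURP knockdown. On the long arm they were 8.426, 9.055, 7.646, 4.687 and 3.590 kb in the same order. New coverage was thus larger on the short arm after DAXX and HIRA knockdown, and larger on the long arm in the HJURP, HIRA+DAXX and HIRA+HJURP lists.

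Of the 27 short-arm sites, 5 were in all 6 lists, 10 had a control base and 17 had none. Of the 34 long-arm sites, 15 were in all 6 lists, 16 had a control base and 18 had none. The sites without control were small on the long arm (median 198 bp, widest 736 bp, 4.527 kb in all) and larger on the short arm (median 569 bp, widest 3474 bp, 15.56 kb in all). Sites of the double knockdowns alone numbered 9 on the long arm and 5 on the short arm, and 6 and 1 of these were in both double knockdowns. Sites of single knockdowns alone numbered 1 on the long arm and 7 on the short arm. HIRA+HJURP touched 31 of the 34 long-arm sites (91.2%) with the least coverage of any list there.

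**Figure D3:**
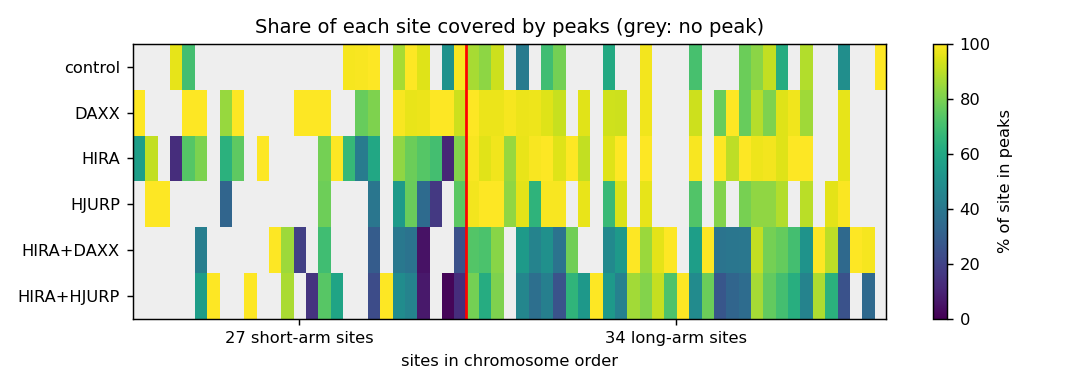
Share of each of the 61 sites covered by peaks (colour, in %), with the lists as rows, the sites in chromosome order as columns, no peak in grey, and a red line between 27 short-arm and 34 long-arm sites. Of the long-arm sites 15 are filled in all 6 lists, against 5 of the short-arm sites, and the leftmost sites, of the distal cluster, are grey in both double knockdowns.

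The distal short-arm cluster was absent from both double knockdown lists. It held 2 peaks and 20.71 kb in control, 2 peaks and 22.08 kb after DAXX knockdown, and 7 peaks and 17.37 kb after HIRA knockdown. After HJURP knockdown 2 peaks and 1.950 kb were left, and neither double knockdown had a peak. The widest control peak of the chromosome lay here (chr16:32549157-32562320, 13164 bp). It was covered to 99.8% after DAXX and 95.4% after HIRA knockdown, and shared no base with HJURP, HIRA+DAXX or HIRA+HJURP. The second control peak of the cluster, 7547 bp wide, had no DAXX base and 1015 bp of HIRA peak in its site. The 2 HJURP peaks, 761 and 1189 bp wide, lay at sites without control, so none of the control bases of this cluster was covered after HJURP knockdown. A site of 3376 bp at chr16:32515332-32518707 was new, in the DAXX list in full and in the HIRA list for 1897 bp. GENCODE places no gene at these 5 sites, and the nearest protein-coding gene to the widest of them was TP53TG3, 123 kb away.

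The proximal cluster carried most of the short-arm coverage. It was 37.26 kb in control (9 peaks), 50.31 kb after DAXX (11 peaks), 29.63 kb after HIRA (18 peaks) and 17.97 kb after HJURP knockdown (10 peaks). It was 10.06 kb in HIRA+DAXX (29 peaks) and 11.90 kb in HIRA+HJURP (36 peaks). All 5 short-arm sites found in every list lay here, and in them the double knockdowns had more and narrower peaks than control. These sites held 6 control, 5 DAXX, 10 HIRA and 8 HJURP peaks, but 25 HIRA+DAXX and 29 HIRA+HJURP peaks. Their median widths were 3771 bp in control, 5628 after DAXX, 1424 after HIRA and 1626 after HJURP knockdown, and 286 and 250 bp in the double knockdowns. Coverage within them was 27.56, 28.43, 23.05 and 16.80 kb in the first 4 lists, and 9.091 and 10.39 kb in the double knockdowns.

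**Figure D4:**
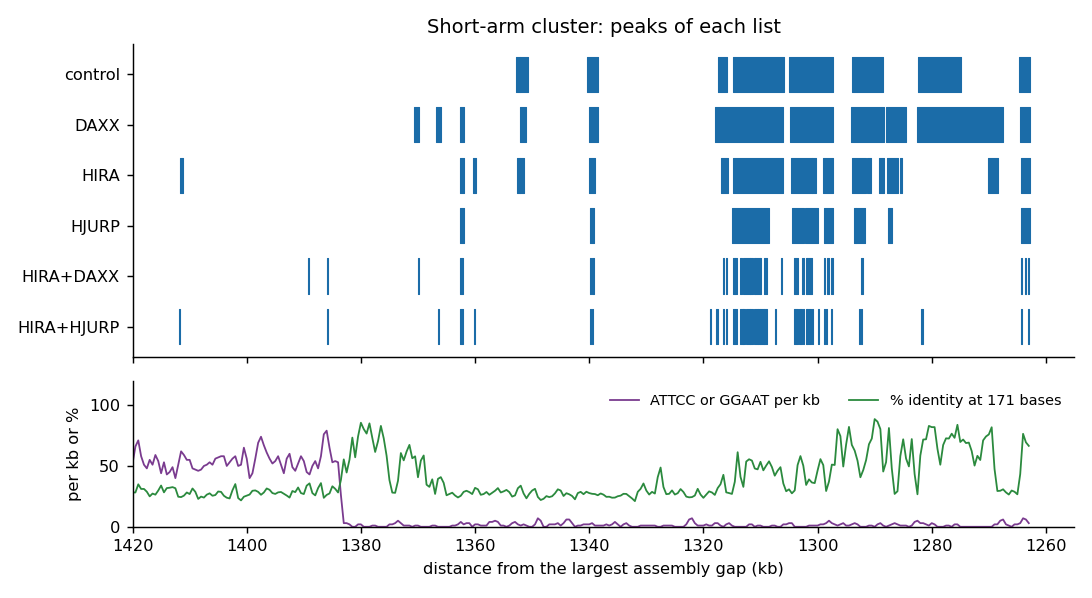
Peaks of the proximal short-arm cluster in each list (upper panel) and, per kb of reference, the pentamer count and the percent identity at 171 bases (lower panel), against the distance in kb from the largest assembly gap. Wide control and DAXX peaks between 1320 and 1263 kb lie where identity at 171 bases rises, and appear as runs of narrow peaks or not at all in the double knockdowns. Identity is also high from about 1383 to 1376 kb, where no list has a peak.

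The wide sites of the proximal cluster differed in how much each list kept. In the widest shared site (chr16:33967856-33979905) control covered 10492 bp, DAXX 11949, HIRA 10037, HJURP 6560, HIRA+DAXX 4833 and HIRA+HJURP 5844 bp, the last in 13 peaks. In the next (chr16:33980754-33988479) the values were 7705, 7484, 5981, 5964, 2933 and 3461 bp, and HIRA and HJURP were nearly equal. In the one after that (chr16:33991730-33997524) they were 5503, 5628, 4260, 2021, 281 and 393 bp, so the double knockdowns were left with 4.85% and 6.78% of the site. The 171-base units printed above come from this last site. Farther in, at chr16:34003271-34018247, control had a peak of 7664 bp and DAXX one of 14977 bp. HIRA had 1614 bp there that shared no base with the control peak, HIRA+HJURP had 221 bp, and HJURP and HIRA+DAXX had none. The site with the CENP-B boxes (chr16:34021038-34023097) held 2039, 1900, 1674, 1542, 513 and 266 bp in the order above, with all 4 boxes under a peak in control and each single knockdown, 2 in HIRA+DAXX and 1 in HIRA+HJURP.

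The widest new short-arm sites were those of the single knockdowns. At chr16:33997803-34001276 (3474 bp) DAXX covered the whole site, HIRA 2433 bp and HJURP 576 bp. At chr16:33535021-33536951 DAXX covered 1635 bp, HIRA 1236 bp and HJURP 629 bp, in an intron of the unprocessed pseudogene ENSG00000282924 on the minus strand. Neither site had a base in a double knockdown. On the short arm only chr16:33923123-33923880 was in all 5 knockdowns without control, with 758 bp after DAXX, 600 after HIRA, 592 after HJURP, 527 after HIRA+DAXX and 561 bp after HIRA+HJURP knockdown. It overlaps an exon of the processed pseudogene ENSG00000262561 on the plus strand, and 93.4% of its 32-base words occur once in the genome. The double knockdown peaks there were nearly as wide as those of HIRA and HJURP knockdown.

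On the long arm the single knockdowns covered the control bases and some of the spaces between them, while the double knockdowns covered less than control. Within the 15 long-arm sites shared by all lists, control had 26 peaks and 21.28 kb. DAXX had 18 peaks and 26.93 kb, HIRA 21 peaks and 27.55 kb, and HJURP 18 peaks and 26.87 kb, so fewer peaks covered more bases. Against control, 11 of the 15 sites had more bases after DAXX knockdown, 15 after HIRA and 13 after HJURP knockdown. The double knockdowns had 48 peaks and 17.68 kb, and 50 peaks and 15.54 kb, with more bases than control at 3 sites each. In the widest site (chr16:46388009-46396108) 6 control peaks covered 6735 bp. There, 3 DAXX peaks covered 7860 bp, 4 HIRA peaks 7731 bp, 2 HJURP peaks 8075 bp, 11 HIRA+DAXX peaks 5807 bp and 13 HIRA+HJURP peaks 5004 bp. HJURP thus had the most complete cover of this site (99.7%), while its short-arm coverage was 0.354 times control. In the next widest (chr16:46404375-46409226) control had 3843 bp and HJURP a single peak of 4800 bp, against 1843 and 1240 bp in the double knockdowns.

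The 3 widest long-arm control peaks, of 2138, 1874 and 1723 bp, lay within 7 kb of the gap and were covered in full in each single knockdown. The HIRA+DAXX list covered 76.4, 98.9 and 69.8% of them and the HIRA+HJURP list 74.0, 80.7 and 78.8%. Of 3 long-arm sites in all 5 knockdowns without control, the widest (chr16:46402432-46403167) had 718 bp of DAXX, 730 of HIRA, 478 of HJURP, 329 of HIRA+DAXX and 269 bp of HIRA+HJURP peaks. The site at chr16:46398321-46398938 was in the 3 single knockdowns only, with 610, 522 and 516 bp. The site printed above at chr16:46417585-46417758 was in the double knockdowns only, with 167 and 159 bp. No gene is annotated at any of the 33 sites of the cluster. The nearest protein-coding gene, SHCBP1, lay 112 kb from the last of them.

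**Figure D5:**
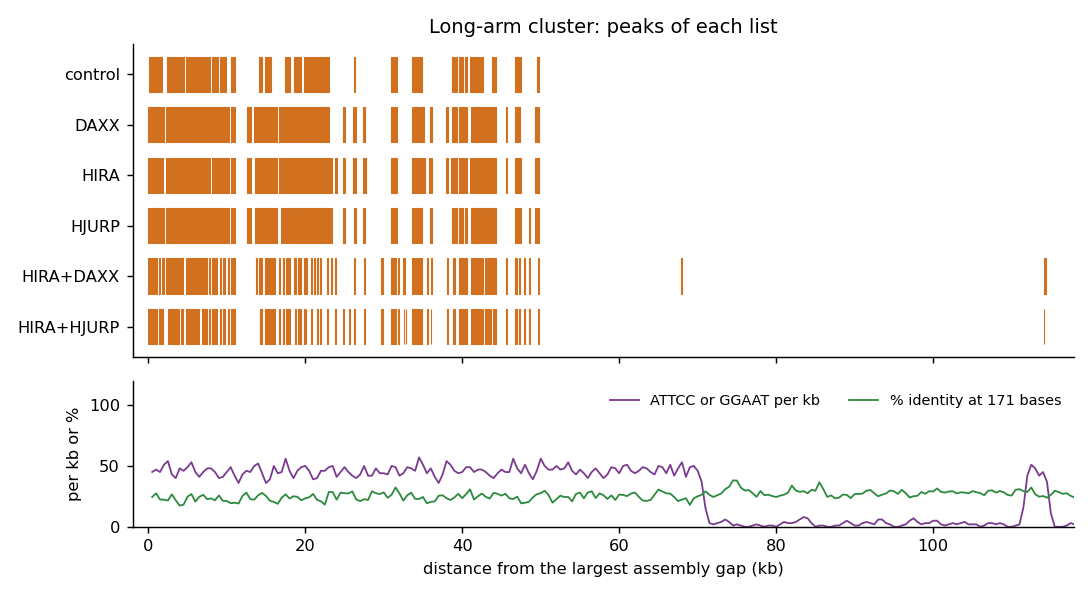
Peaks of the long-arm cluster in each list (upper panel) and, per kb of reference, the pentamer count and the percent identity at 171 bases (lower panel), against the distance in kb from the largest assembly gap. Apart from 2 sites of the double knockdowns, all peaks lie in the first 50 kb of a pentamer stretch of 71000 bp, and identity at 171 bases stays low throughout.

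The site of control alone stood apart from the others in position and sequence. The peak was 227 bp wide and lay 4390 kb from the gap, in an intron of the long noncoding RNA gene CYLD-AS1 on the minus strand. It was 42 bp from the annotated start of CYLD on the plus strand, which encodes a deubiquitinase known as a tumour suppressor. Its GC content was 65.6%, against 26.8 to 44.6% at the other 60 sites, and all of its 32-base words occur once in the genome. No knockdown list had a base there.

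The long-arm peaks were nearly all of the pentamer kind, and the short-arm peaks were mixed. Peaks were scored as pentamer peaks at 20 or more ATTCC or GGAAT per kb, both strands counted, and as period-171 peaks where 40% or more of bases matched the base 171 positions on, 171 being the best repeat length in the proximal cluster itself. Peaks under 271 bp that were not pentamer peaks were left unscored for the period. On the long arm 26 of 27 control peaks were pentamer peaks, as were all DAXX, HIRA and double knockdown peaks and 23 of 24 HJURP peaks. On the short arm period-171 peaks made up 7 of 11 in control and 90.7% of the bases. They were 10 of 16 after DAXX, 15 of 28 after HIRA and 9 of 13 after HJURP knockdown. In the double knockdowns 9 of 30 and 9 of 38 were, with 12 and 21 too narrow to score. By bases they made up 92.3% after DAXX, 75.5% after HIRA and 79.6% after HJURP knockdown, and 49.6 and 43.9% in the double knockdowns. Short-arm peaks scored as neither kind numbered 4 in control, 6 after DAXX, 11 after HIRA, 4 after HJURP, 7 after HIRA+DAXX and 6 after HIRA+HJURP knockdown. Between 50 and 400 bases, 171 gave 52.7% identity in the proximal cluster, against a median of 26.9% over all lengths, and in the distal cluster the best length was 172 (51.2%). At 171 the distal cluster had 41.3%, and its sites with control peaks had 40.9% and 40.6%. These lie just over the 40% used for scoring, so the period-171 share of its bases hangs on that threshold. The 4 CENP-B boxes were spaced 342, 342 and 340 bp apart, that is, in every other unit.

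DNA of these repeat kinds held peaks to very different extents along chromosome 16. Windows of 1000 bp with 20 or more pentamers numbered 135 of the 78880 on chromosome 16. Of 75 on the long arm 50 had a peak in some list (66.7%), and of 55 on the short arm, among them a run at the outer end of the proximal cluster, 3 had one (5.45%). The peaks there were 1 of HIRA (493 bp) and 2 in each double knockdown, and none was in control. Windows with the 171-base period numbered 311, with 112 in the short-arm span, where 60 had a peak (53.6%). Of 195 such windows outside both spans, 1 had a peak. Windows with a CENP-B box numbered 3, of which 2 were under the short-arm site in every list. For comparison 0.202% of all windows on the chromosome had a peak. Control covered 30.0% of the long-arm pentamer stretch (71000 bp at 46.0 pentamers per kb), DAXX 41.5%, HIRA 42.7%, HJURP 40.6%, HIRA+DAXX 27.9% and HIRA+HJURP 24.6%.

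Repeats limit how reads are placed. The authors kept alignments of mapping quality 10 or higher, and a read that fits several places equally well falls below that. Of the 83346 distinct 32-base words of the short-arm sites, 73.4% occur once in the genome and 25.4% also on another chromosome. Of the 17987 of the long-arm sites, 44.9% occur once and 10.2% also on another chromosome, most often on chromosome 7 (6.79%). A distinct word enters these shares a single time, however often the sites repeat it. Counted at every position, 20.4% and 17.9% of words occur once in the widest long-arm sites, of 8100 and 4852 bp. In the widest short-arm sites, of 18728 and 14977 bp, 86.0% and 58.1% do. Words found once were thus fewer on the long arm, and most of its repeated words recurred within chromosome 16. What part the mapping filter had in the difference between the arms was not tested.

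Set beside the same repeat kinds elsewhere in the series, both arms had lower ratios to control in each knockdown, and these differences have no test. Coverage of period-171 peaks after HJURP knockdown was 0.311 times control on the short arm and 0.911 in the rest of the series, and 30.3% and 75.5% of the control bases in such peaks were covered. After DAXX knockdown the ratios were 1.31 and 1.35, after HIRA knockdown 0.702 and 1.02, in HIRA+DAXX 0.0961 and 0.267, and in HIRA+HJURP 0.102 and 0.514. These ratios leave out peaks too narrow to score. In the double knockdowns those were 12 of 30 and 21 of 38 on the short arm, and 336 of 925 and 565 of 1477 in the rest. Each list's peaks were also scored on their own, so part of a control period-171 peak can be of neither kind in a knockdown list. After HIRA knockdown, short-arm peaks of neither kind covered 11.26 kb, 2.10 times control. By peaks of any kind, 64.2% (HIRA), 15.7% (HIRA+DAXX) and 18.1% (HIRA+HJURP) of the control period-171 bases were covered on the short arm. In the rest of the series 82.3%, 34.2% and 54.4% were. The short-arm values rest on 7 control peaks, against 120 in the rest. Coverage of pentamer peaks on the long arm was 1.39, 1.42, 1.34, 0.945 and 0.826 times control in the order DAXX, HIRA, HJURP, HIRA+DAXX and HIRA+HJURP. In the rest of the series it was 2.46, 2.03, 1.79, 1.66 and 1.39 times control.

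The share of all coverage that lay on chromosome 16 was 14.4% in control, 7.54% after DAXX, 8.75% after HIRA, 4.38% after HJURP, 7.83% after HIRA+DAXX and 3.93% after HIRA+HJURP knockdown. Chromosome 10 within 10 Mb of its largest gap, chosen after the values were seen and including peaks in its centromere band, held 278 peaks. Its coverage ratios were 1.17 after DAXX, 1.02 after HIRA, 0.977 after HJURP, 0.832 after HIRA+DAXX and 0.767 after HIRA+HJURP knockdown. Chromosome 1, taken the same way with 197 peaks, gave 2.90, 1.77, 2.26, 0.560 and 0.95. After HJURP knockdown chromosome 16 as a whole, at 0.621 times control, was thus below both, and its long arm, at 1.34, lay between them.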

How the data were processed

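CENP-A ChIP-Seq and input libraries of SW480 cells were trimmed by the authors with Trimmomatic, aligned to hg19 with Bowtie2 2.2.6 and kept at mapping quality 10 or higher, with SAMtools and deepTools also named in the submitters' processing notes. The authors called peaks with MACS against each input and merged them over replicates, keeping merged peaks found in at least 3 replicates. The deposited lists hold only chromosome, start and end, so the unit is a position in bases, and no read count, score or signal is given. Lists were assigned to conditions by the condition that each name states.

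Peak widths (end minus start) were summed to give coverage, and peaks were intersected base by base in Python 3.11.15 with numpy 2.4.6 and numba 0.67.0, with scipy 1.17.1 for Wilson intervals and matplotlib 3.10.9 for plots. Interval and repeat code was first tested on simulated sequences and intervals. All 5746 distinct peak positions ended within their GRCh37 chromosomes. Genes are from GENCODE release 44 lifted to GRCh37. Regions named were, on each arm, the 3 widest control peaks, the 3 widest sites without control, the sites of control alone, and the 3 widest sites in all lists. Other sites named, the loci, the repeat scores and the chromosomes compared were chosen after values were seen. The members and lists were chosen with earlier results of these data known. Alternatives were a minimum width of 500 bp, merging within 1000 bp, a limit of 3 Mb from the gap, 50% overlap, an extension of 500 bp, and bases in place of peaks.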

Additional observations from a re-analysis of the deposited data

Results flagged for a closer look

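The arms went opposite ways in 2 of the knockdowns. After HIRA knockdown coverage was 0.844 times control on the short arm and 1.41 times control on the long arm. After HJURP knockdown it was 0.354 times control on the short arm and 1.34 on the long arm. With 1 merged list per condition, neither difference was tested.

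On chromosome 16, 2 peaks fell outside both windows and entered no comparison, both in double knockdown lists. One was 125 bp wide in HIRA+DAXX (chr16:35239605-35239729) and the other 109 bp wide in HIRA+HJURP (chr16:35239615-35239723), about 46 kb from the largest gap on the short-arm side. They overlapped each other, and control had no peak there.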

How the results depend on the processing

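No paired analysis was possible because each condition has 1 list merged over its replicates, and leaving out a replicate was not possible either. The lists hold no score, which leaves no stricter threshold to apply, and they do not give the depth behind a peak. Of 129 values under alternatives, 85 kept their direction and stayed near the reported value, among them all of those limited to 3 Mb from the gap. The values for each arm apart were added after the data were seen.

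With peaks of at least 500 bp only, the number ratio to control turned below 1 in the double knockdowns. It was 0.517 over both arms, 0.545 on the short and 0.500 on the long arm in HIRA+DAXX, and 0.586, 0.818 and 0.444 in HIRA+HJURP. Coverage ratios were 0.167, 0.0782 and 0.440 in HIRA+DAXX and 0.155, 0.101 and 0.322 in HIRA+HJURP. Shares kept were 34.5% and 31.0%, and shares gained were 24.4% (HIRA), 13.3% (HIRA+DAXX) and 5.88% (HIRA+HJURP). The short-arm share was 52.9% in HIRA+HJURP and 53.7% after HIRA knockdown, against 36.2% and 49.1%. The higher numbers of peaks in the double knockdowns thus rest on peaks under 500 bp.

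With peaks within 1000 bp merged, number ratios were 1.20 over both arms, 1.44 on the short and 1.00 on the long arm in HIRA+DAXX, 1.25, 1.78 and 0.818 in HIRA+HJURP, and 0.818 on the long arm after HIRA knockdown. Merged coverage ratios were 1.03 (HIRA), 0.609 (HIRA+DAXX) and 0.672 (HIRA+HJURP) over both arms, 0.322 on the short arm in HIRA+HJURP, and on the long arm 1.42 and 1.46 in the double knockdowns, now above control since merging takes in the spaces between narrow peaks. Shares gained were 41.7% and 44% in the double knockdowns. Short-arm shares of peaks were 45.0% (control), 62.5% (DAXX), 69.0% (HIRA), 54.2% (HIRA+DAXX) and 64.0% (HIRA+HJURP).

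With at least 50% of a control peak covered, 65.8% and 57.9% were kept in HIRA+DAXX and HIRA+HJURP. With no control base within 500 bp, 18.3% and 20% were gained. By bases the short-arm share was 72.9% in control and 71.7% after DAXX knockdown.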
